A study of Homo sapiens with 6 samples.

Results

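Transcripts of 43 genes whose products build ribosomes in the nucleolus were followed in SW620 cells with and without a hairpin against ECM1. The 43 genes were taken by name from a list of nucleolar factors, many of them known MYC targets, and all 43 were found by symbol among the 20476 gene rows of the count table. SW620 is a human colorectal cancer cell line derived from a lymph node metastasis, and ECM1 encodes the secreted extracellular matrix protein 1. The knockdown group (shECM1) is 3 libraries of cells with a stable short hairpin RNA directed at ECM1. The control group (shNC) is 3 libraries with a negative control hairpin, so both groups hold a hairpin and no library comes from cells without one. How many hairpin sequences, clones or separate cultures stand behind the libraries is not given in the sources used here, so the p-values reflect the spread of these libraries alone, which may be technical. The count columns are named by a letter and a number, and their match to the groups was inferred from those names. Were that match the wrong way round, each direction below would turn over.

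Ribosomes are assembled in the nucleolus, where RNA polymerase I transcribes a long precursor rRNA that is modified, folded, cut and packed with ribosomal proteins. Small nucleolar ribonucleoproteins (snoRNPs) place chemical modifications on the rRNA, with box C/D particles methylating ribose and box H/ACA particles converting uridine to pseudouridine. The small-subunit processome shapes the precursor of the 40S subunit, other factors assemble the 60S subunit, and growth-promoting signals, MYC among them, are known to raise the output of the whole line.

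Every one of the 43 members had a higher fitted level in shECM1 than in shNC, but none was called by edgeR's quasi-likelihood test, which called no gene at all. A call here is an adjusted p under 0.05 after Benjamini-Hochberg adjustment over the 12576 genes tested, and the share of all tested genes called was 0%. The smallest adjusted p among the members was 0.105, against 0.0973 among all genes. The log2 fold changes of the members ran from 0.18 to 0.70 with a median of 0.43, while the median of all tested genes was 0.01. A positive log2 fold change was found in 43 of 43 members and in 51.4% of all tested genes. At an unadjusted p under 0.05, 28 members were higher and 0 were lower, where 8.31% of all tested genes were higher and 14.2% lower. That count was 13 without shECM1 replicate 3, a setting in which 9.51% of all genes were higher.

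Among the settings tried, the number of members called changed most when shNC replicate 2 was left out. Without shNC replicate 2, edgeR called 38 of the 43 members higher, where 9.73% of all genes were called higher, and the median log2 fold change of the members was 0.65. RRN3, FBL, NOP10, BYSL and RRP12 were the 5 members not called in that fit. Without shNC replicate 3, the library with the lowest levels, the median was 0.28 and 0 members were called. With all 6 libraries, DESeq2 called 7 members higher and 0 lower, where 0.957% of the genes with an adjusted p were called higher. These were NOP58, NHP2, NCL, NPM1, UTP4, LTV1 and NIP7. All 7 were among the 38 called by edgeR without shNC replicate 2. That fit reuses the same libraries less the control nearest to the shECM1 levels, so it adds no separate support. With no filter on low counts, edgeR called NOP58, NCL and LTV1, where 0.256% of all genes were called higher.

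**Figure D1:**
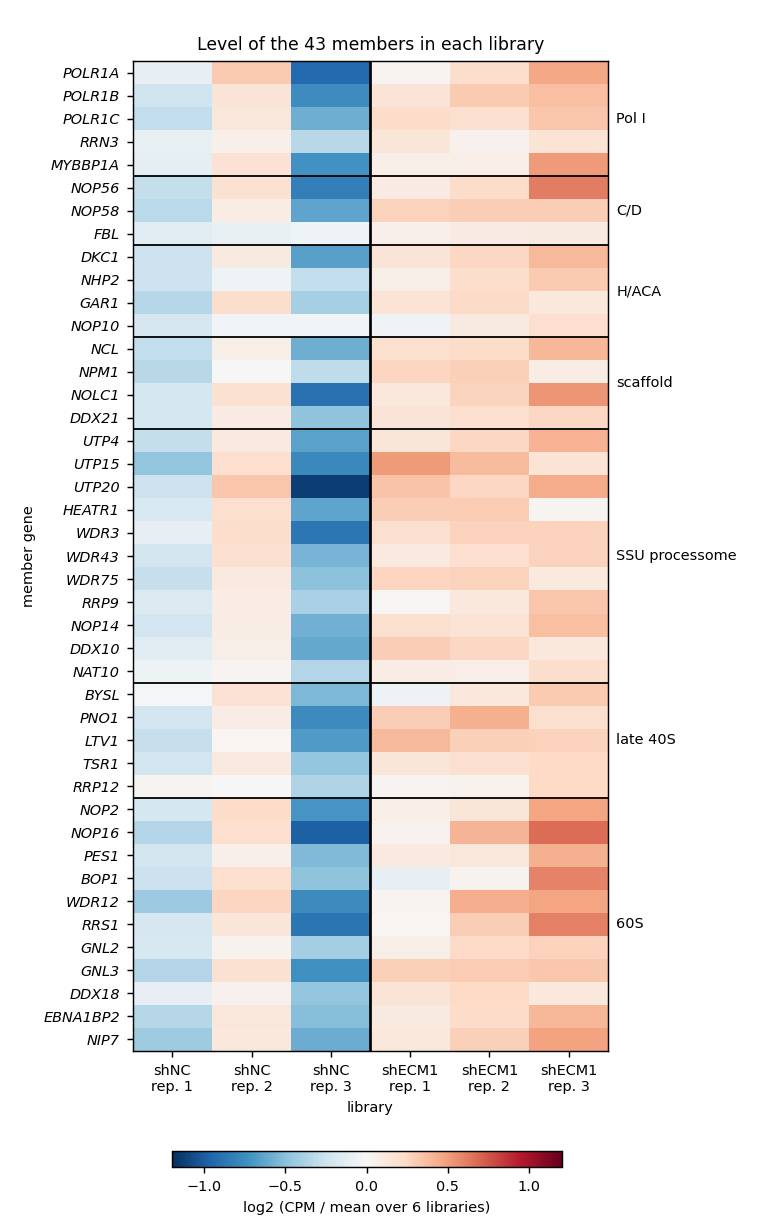
Level of each member (rows, grouped by role) in each library (columns), as the log2 ratio of its normalised CPM to its mean over the 6 libraries. Red is above and blue below that mean. Columns shNC replicates 1 and 3 are mostly blue, and shNC replicate 2 is mostly pale red like the shECM1 columns.

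Most members moved in a similar way from library to library. FBL and NOP10 did not, since among the controls both were highest in shNC replicate 3. Levels are CPM, counts scaled to a common library total with TMM factors. Relative to each gene's mean over the 6 libraries, the median log2 level of the members was -0.23, 0.12 and -0.59 for replicates 1 to 3 of shNC. For replicates 1 to 3 of shECM1 it was 0.14, 0.23 and 0.32. Thus shNC replicate 2 stood with the knockdown libraries, and shNC replicate 3 stood lowest. It was the lowest of the 6 libraries for 40 members, and shNC replicate 2 was the highest control library for 40 members. In shNC replicate 2, 21 members lay above the lowest shECM1 library. In the other 22 members every shECM1 library lay above every shNC library, as in 11.2% of all tested genes. Without shNC replicate 2 the groups did not overlap in 42 members, where the share of all genes was 27.0%. The coefficient of variation of a member had a median of 24.6% in shNC and 8.02% in shECM1, against 12.2% and 11.1% over all tested genes.

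The level of ECM1 itself, the targeted gene, was 38.8, 19.0 and 52.3 CPM in the 3 shNC libraries, in replicate order, and 14.8, 13.6 and 8.41 CPM in the 3 shECM1 libraries. The groups did not overlap, and the log2 fold change of -1.58 ± 0.32 (SE) was not called by edgeR (adjusted p = 0.0973). Ranked from the highest to the lowest ECM1 level, the libraries ran shNC 3, 1 and 2, then shECM1 1, 2 and 3, which is also their order from the lowest to the highest median level of the members. The first principal component of all tested genes (58.2% of the variance) placed them in that order too, from -41.3 to 23.3. This order is a description of 6 libraries, and which of these measures bears on another was not tested. MYC, which encodes a transcription factor that drives ribosome production, was at 277, 498 and 223 CPM in shNC and at 456, 488 and 671 CPM in shECM1, with shNC replicate 2 inside the shECM1 range. Its log2 fold change of 0.69 ± 0.25 (SE) was not called (edgeR adjusted p = 0.151). Neither DESeq2 (adjusted p = 0.302) nor edgeR with no count filter (adjusted p = 0.0686) called MYC. Without shNC replicate 2 the log2 fold change of MYC was 1.12 and called (edgeR adjusted p = 7.57e-04). Without shNC replicate 3 it was 0.48 and not called (edgeR adjusted p = 0.424). MXD1, a MAX partner that opposes MYC, was at 44.7, 32.8 and 63.0 CPM in shNC and at 27.3, 25.6 and 23.3 CPM in shECM1, so the groups did not overlap (log2 fold change -0.88, edgeR adjusted p = 0.0973). DESeq2 called MXD1 at an adjusted p of 0.00287, and edgeR called it at 0.0169 when genes of low count were kept. With shNC replicate 2 left out its log2 fold change was -1.07 and passed edgeR's test (adjusted p = 6.66e-04). MXD1 and MYC had the smallest p-values of a list of 11 MYC and MAX network genes. The 10 tested genes of that list had a median log2 fold change of 0.10, with 6 positive and 4 negative. At an unadjusted p under 0.05, 1 was higher and 2 lower, where 8.31% of all tested genes were higher and 14.2% lower. Among the rest, MYCL was at 0.46, MGA at 0.22, MAX at 0.20, MXD4 at 0.18 and MLX at 0.02. MXI1 was at -0.01, MNT at -0.22 and MXD3 at -0.40.

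**Figure D2:**
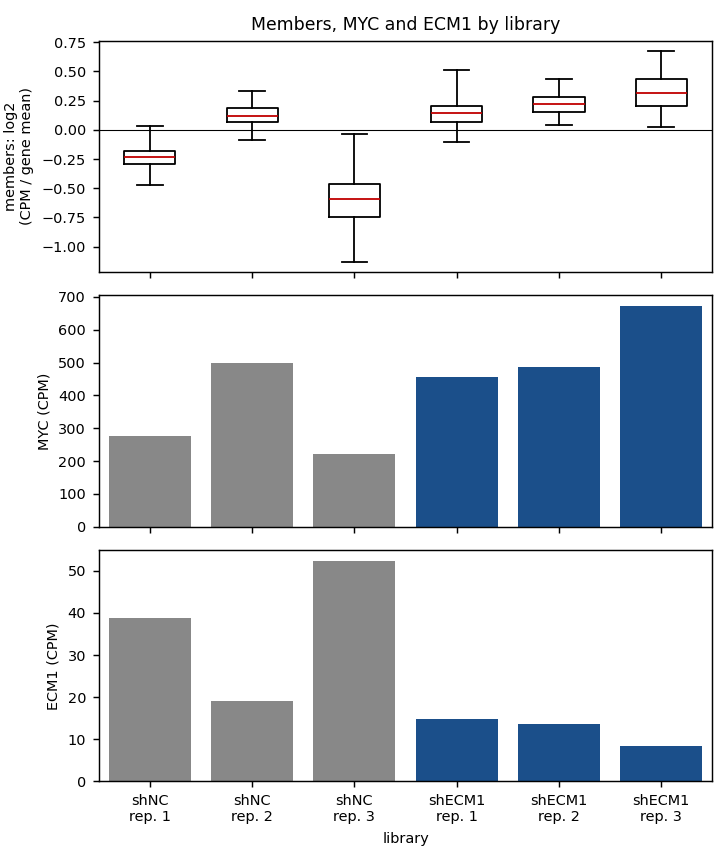
Upper panel, the 43 members in each library as log2 of CPM over the gene's mean (red line, median; box, quartiles; whiskers, lowest and highest member). Middle and lower panels, MYC and ECM1 in CPM, with shNC in grey and shECM1 in blue. In shNC replicate 2, MYC is at 498 CPM and the median of the members at 0.12, inside or just under the shECM1 range.

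Total counts ran from 9881720 to 16813951 per library, and a member rested on 139 to 29760 counts in a library. CPM is a share of a library, so more RNA per cell, or more cells of one kind, cannot be told apart from it. Of 10 intestinal epithelial markers, EPCAM (455 to 538 CPM), KRT8 (5708 to 8734 CPM), KRT18, CDH1 and VIL1 were at 297 CPM or more in every library. CDX2 was at 9.59 to 24.1 CPM, CDH17 at 5.05 to 8.02, and KRT20 and LGALS4 at 1.78 CPM or less, while CDX1 had 0 counts in 5 of 6 libraries. This list summed to 10645 to 15337 CPM in shNC and 10320 to 11665 in shECM1. Of its 9 tested genes, 6 had a negative log2 fold change. At an unadjusted p under 0.05, 2 were lower, against 14.2% of all tested genes. The 10 fibroblast markers summed to 23.6 to 35.5 CPM in shNC and 16.7 to 20.9 in shECM1, with COL3A1, PDGFRA, FAP and POSTN at 0 in every library. The 10 immune markers summed to 76.9 to 195 CPM in shNC and 49.9 to 79.1 in shECM1, with PTPRC, CD3E, MS4A1 and TYROBP at 0. Most of that sum was CD68, at 119, 68.9 and 175 CPM in shNC and 71.9, 62.4 and 41.4 CPM in shECM1, and LYZ was at 4.86 to 15.8 CPM. The 8 endothelial markers summed to 21.5 to 33.5 CPM in shNC and 16.9 to 18.4 in shECM1, with KDR and ERG at 0. Each of these 3 lists had 3 tested genes, all with a negative log2 fold change. Lower at an unadjusted p under 0.05 were 1 fibroblast, 2 immune and 1 endothelial marker, against 14.2% of all tested genes. The part of these markers in the results was not tested.

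The E-box, the DNA hexamer to which MYC binds with its partner MAX, was looked for in the promoters because many members are known MYC targets. RefSeq (build GRCh38.p14) gave a window from 250 bases before to 50 bases after the start for 37 members. The hexamer CACGTG reads the same on both strands, and it was present in 16 of these 37 windows (43.2%). It was present in 10.1% of the windows of 10145 tested genes and in 7.43% of all 27305 windows. The share was 22.6% among 106 other ribosome biogenesis genes and 4.76% among 63 cytosolic ribosomal protein genes. Members with and without the hexamer had median log2 fold changes of 0.42 and 0.43, a difference that was not tested. A match is a string of letters and does not show that MYC was bound.

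In 15 of the 16 members a copy of the hexamer began within 50 bases of the start. It is printed here in 30 bases of context from 10 members, to show how the flanks differ. In 5 of them the hexamer begins before the start and in 5 after it. The core is shared because the windows were picked for holding it. The first 5 are UTP4 (chr16:69132621-69132650, plus strand), UTP20 (chr12:101280083-101280112, plus), NAT10 (chr11:34105602-34105631, plus), NOP10 (chr15:34343130-34343159, minus) and RRP9 (chr3:51941892-51941921, minus), where it begins at -16, -10, -15, -11 and -5 from the start. The other 5 are FBL (chr19:39846356-39846385, minus), PNO1 (chr2:68157885-68157914, plus), PES1 (chr22:30591880-30591909, minus), NOP14 (chr4:2963374-2963403, minus) and LTV1 (chr6:143843354-143843383, plus), where it begins at 6, 9, 13, 15 and 28. Capitals mark the hexamer, and each run reads 5′ to 3′ along the gene's strand.
UTP4: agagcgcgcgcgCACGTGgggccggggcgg
UTP20: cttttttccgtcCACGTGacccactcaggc
NAT10: aatgcgcttgcgCACGTGctgtctaccagt
NOP10: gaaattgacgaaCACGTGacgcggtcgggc
RRP9: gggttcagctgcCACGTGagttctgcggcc
FBL: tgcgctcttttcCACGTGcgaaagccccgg
PNO1: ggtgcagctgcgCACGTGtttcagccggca
PES1: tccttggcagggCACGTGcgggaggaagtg
NOP14: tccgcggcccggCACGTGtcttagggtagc
LTV1: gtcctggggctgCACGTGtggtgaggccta
The log2 fold changes of these 10 genes ran from 0.18 in FBL and NOP10 to 0.60 in LTV1, the highest of the 16 members with the hexamer. All 43 members ran from 0.18 to 0.70.

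**Figure D3:**
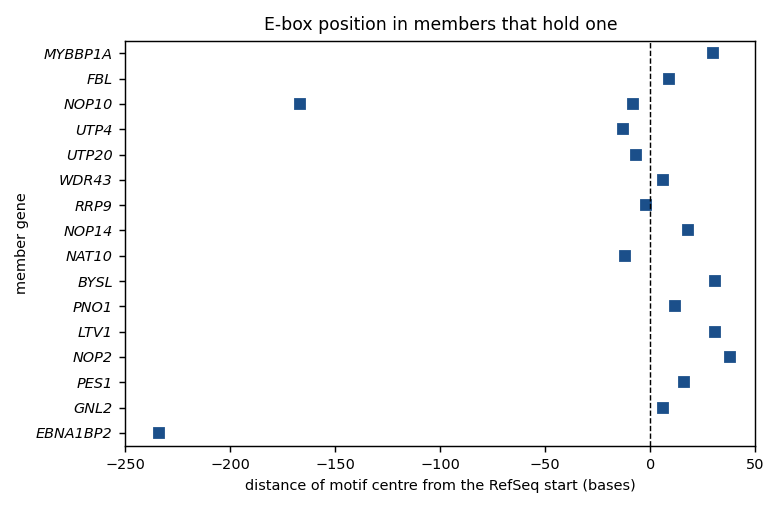
Distance in bases of the centre of each E-box hexamer from the RefSeq start (dashed line) in the 16 members that hold one. Most squares lie beside the line, and those of EBNA1BP2 and the first of NOP10 lie far before it.

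Genes of RNA polymerase I transcription come first in the pathway. The 5 members had log2 fold changes from 0.23 to 0.52. Of these, 2 were higher at an unadjusted p under 0.05, against 8.31% of all tested genes. POLR1B, the second-largest subunit of RNA polymerase I (GRCh38 chromosome 2, 112541915 to 112577150, plus strand), was at 53.6, 70.1 and 37.4 CPM in shNC and at 70.4, 78.4 and 81.2 CPM in shECM1. The lowest knockdown library barely exceeded the second control. The fitted log2 fold change was 0.52 ± 0.19 (SE, edgeR adjusted p = 0.150). POLR1C, a subunit shared by RNA polymerases I and III, was at 53.9, 72.5 and 44.0 CPM in shNC and at 76.9, 75.8 and 83.5 CPM in shECM1, again without overlap (0.47 ± 0.16, adjusted p = 0.137). POLR1A, the largest subunit, RRN3, the factor that brings the polymerase to its promoter, and MYBBP1A, a nucleolar Myb-binding protein, overlapped between the groups, with log2 fold changes of 0.40, 0.23 and 0.41. In MYBBP1A, the one of the 5 with the highest level, shNC replicate 2 at 93.1 CPM lay above shECM1 replicates 1 and 2 at 86.4 and 87.1 CPM.

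The core proteins of box C/D snoRNPs are NOP56, NOP58 and the methyltransferase fibrillarin (FBL). NOP58 (chromosome 2, 202265716 to 202303666, plus strand) was at 112, 149 and 90.2 CPM in shNC and at 170, 172 and 172 CPM in shECM1. The 3 knockdown libraries were nearly equal and all above the controls, with a log2 fold change of 0.55 ± 0.16 (SE, edgeR adjusted p = 0.108, DESeq2 adjusted p = 0.0234). NOP56 was at 188, 261 and 129 CPM in shNC and at 245, 267 and 350 CPM in shECM1. Here shNC replicate 2 lay above shECM1 replicate 1, and the log2 fold change of 0.58 ± 0.22 had an edgeR adjusted p of 0.158. FBL stood apart from its partners in spread, with 395, 407 and 416 CPM across the controls and 451, 464 and 464 CPM across the knockdown libraries. Its groups did not overlap, its control libraries were close together, and its log2 fold change was 0.18 ± 0.09 (adjusted p = 0.261).

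Among the box H/ACA proteins, DKC1 is dyskerin, the pseudouridine synthase, and NHP2, GAR1 and NOP10 are its core partners. DKC1 was at 124, 160 and 93.8 CPM in shNC and at 164, 175 and 194 CPM in shECM1, without overlap (log2 fold change 0.50 ± 0.17 SE, edgeR adjusted p = 0.130). NHP2 (chromosome 5, 178149460 to 178153967, minus strand) was at 75.3, 86.4 and 73.1 CPM in shNC and at 93.9, 103 and 112 CPM in shECM1. Its groups did not overlap either, and the log2 fold change of 0.40 ± 0.11 had an edgeR adjusted p of 0.109 and a DESeq2 adjusted p of 0.0424. GAR1 and NOP10 overlapped between the groups. GAR1 had a mean of 22.7 ± 5.57 CPM under the control hairpin and 28.4 ± 0.973 CPM under the ECM1 hairpin, and NOP10 had means of 113 ± 7.34 and 128 ± 11.3 CPM (SD, n = 3 each). With FBL, NOP10 had the smallest log2 fold change of the members, at 0.18.

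Abundant nucleolar proteins formed the next group. All 4 were higher at an unadjusted p under 0.05, as were 8.31% of all tested genes. Nucleolin (NCL, chromosome 2, 231453531 to 231483641, minus strand), which binds precursor rRNA, was at 901, 1158 and 736 CPM in shNC and at 1266, 1287 and 1461 CPM in shECM1. Every knockdown library lay above every control, with a log2 fold change of 0.52 ± 0.15 (SE, edgeR adjusted p = 0.109, DESeq2 adjusted p = 0.0249). Nucleophosmin (NPM1, chromosome 5, 171387116 to 171411137, plus strand), a nucleolar scaffold and histone chaperone, was at 1156, 1454 and 1180 CPM in shNC and at 1740, 1773 and 1548 CPM in shECM1. The groups again did not overlap (0.42 ± 0.11, edgeR adjusted p = 0.105, DESeq2 adjusted p = 0.0267), but 45 pseudogenes are named after NPM1 in GENCODE, and its counts are uncertain for that reason. DDX21, an RNA helicase, did not overlap between the groups and had a log2 fold change of 0.38. NOLC1, a snoRNP chaperone, overlapped through shNC replicate 2 (196 CPM, against 189 in shECM1 replicate 1) and had a log2 fold change of 0.56.

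The 11 members of the small-subunit processome had log2 fold changes from 0.25 (the rRNA acetyltransferase NAT10) to 0.64 (UTP15). Of the 11, 6 were higher at an unadjusted p under 0.05, against 8.31% of all tested genes. UTP4 (chromosome 16, 69131291 to 69231130, plus strand), a subunit that joins the precursor early, was at 234, 310 and 182 CPM in shNC and at 316, 338 and 381 CPM in shECM1. The lowest knockdown library barely exceeded shNC replicate 2 (log2 fold change 0.51 ± 0.17 SE, edgeR adjusted p = 0.127, DESeq2 adjusted p = 0.0485). NOP14 was at 96.0, 120 and 75.4 CPM in shNC and at 129, 126 and 144 CPM in shECM1, without overlap (0.46 ± 0.15, adjusted p = 0.130). DDX10, an RNA helicase, and NAT10 also did not overlap between the groups, while UTP15, UTP20, HEATR1, WDR3, WDR43, WDR75 and RRP9 did. UTP20 showed how far the controls could spread, at 22.9, 34.3 and 12.5 CPM in shNC against 34.5, 32.4 and 37.1 CPM in shECM1. Its shNC replicates 1 and 3 lay far below the other 4 libraries.

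Of the 5 factors of later 40S maturation and export, 3 were higher at an unadjusted p under 0.05, against 8.31% of all tested genes. LTV1 (chromosome 6, 143843344 to 143863812, plus strand), a 40S assembly factor, was at 39.7, 48.9 and 30.0 CPM in shNC and at 63.0, 58.6 and 58.2 CPM in shECM1. The gap between the groups was clear of shNC replicate 2, and the log2 fold change of 0.60 ± 0.16 (SE) had an edgeR adjusted p of 0.105 and a DESeq2 adjusted p of 0.0174. PNO1, an RNA-binding factor at the end of 18S rRNA, was at 14.5, 18.0 and 9.95 CPM in shNC and at 20.7, 22.8 and 19.3 CPM in shECM1, without overlap (0.57 ± 0.20, adjusted p = 0.139). TSR1, a GTPase-like factor on the late 40S precursor, was at 155, 199 and 133 CPM in shNC and at 202, 208 and 215 CPM in shECM1 (0.36 ± 0.14, adjusted p = 0.161). In TSR1 the lowest knockdown library was barely above shNC replicate 2. RRP12, a factor of 40S export, had a log2 fold change of 0.21 and did not overlap, with shNC replicate 1 at 81.7 CPM and shECM1 replicate 1 at 81.8 CPM, whereas BYSL (bystin) overlapped, at 0.23.

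The 11 members of 60S assembly had the largest single value, 0.70 in NOP16. Of the 11, 9 were higher at an unadjusted p under 0.05, against 8.31% of all tested genes. NIP7 (chromosome 16, 69337996 to 69343111, plus strand), an rRNA-processing factor, was at 65.7, 96.3 and 58.3 CPM in shNC and at 96.5, 108 and 124 CPM in shECM1. Its shNC replicate 2 and shECM1 replicate 1 were almost equal, and the log2 fold change was 0.57 ± 0.17 (SE, edgeR adjusted p = 0.116, DESeq2 adjusted p = 0.0348). PES1, BOP1 and WDR12 encode the partners of 1 complex that processes the large-subunit rRNA. PES1 was at 170, 205 and 137 CPM in shNC and at 214, 217 and 265 CPM in shECM1, without overlap (0.44 ± 0.15, adjusted p = 0.130). BOP1 and WDR12 overlapped, with log2 fold changes of 0.37 and 0.58. GNL2 and GNL3 (nucleostemin), both nucleolar GTPases, and the helicase DDX18 did not overlap, at 0.37, 0.55 and 0.33, and NOP2, an rRNA methyltransferase, RRS1 and EBNA1BP2 did, at 0.43, 0.58 and 0.46. NOP16 overlapped as well, with 23.9, 35.2 and 15.5 CPM in shNC and 31.5, 40.6 and 48.7 CPM in shECM1.

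**Figure D4:**
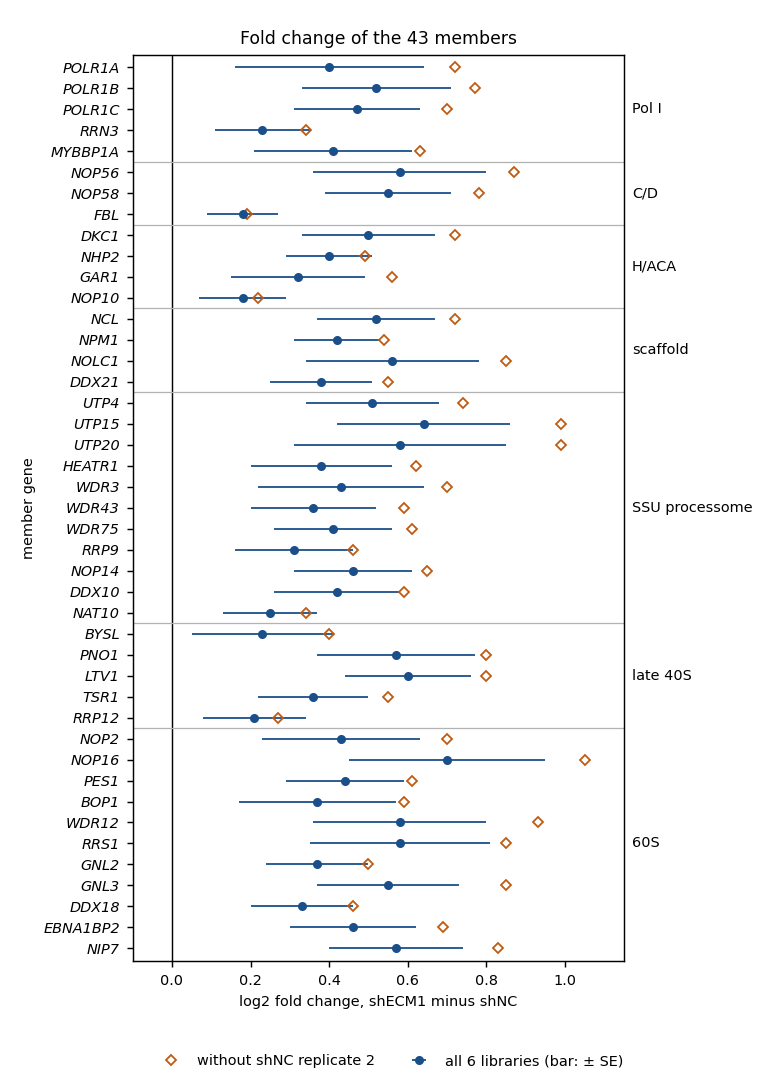
Log2 fold change (shECM1 minus shNC) of each member with all 6 libraries (filled circles, bars ± SE) and without shNC replicate 2 (open diamonds). All circles lie between 0.18 and 0.70, and every diamond lies to the right of its circle.

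Levels per kilobase of annotated exon, averaged over the 6 libraries, set the members in order of abundance. NPM1 was at 385 CPM per kb, NOP10 at 217, FBL at 199 and NCL at 164, and the next was DDX21 at 62.8. UTP15 and UTP20 were the least abundant, at 2.98 and 2.89 CPM per kb.

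A feature of gene structure was shared by several members. Genes of snoRNAs, the guide RNAs of the snoRNPs, lie inside 7 members on the same strand (NOP56, NOP58, DKC1, NCL, WDR43, TSR1 and GNL3), where 1.27% of 19715 protein-coding genes in the table hold one. All 7 were higher at an unadjusted p under 0.05, as were 21 of the other 36 members and 8.31% of all tested genes. The median log2 fold change was 0.52 in the 7 and 0.42 in the other 36 members. The difference between these medians was not tested. Exons of 18 members overlap exons of a gene on the other strand, among them NIP7 (957 bases with COG8) and NHP2 (414 bases with RMND5B). Whether counting used strand is not given in the sources used here, so reads of such pairs cannot be told apart. NOP2, LTV1 and RRS1 also share exon bases with overlapping genes on their own strand (2550 bases in NOP2 and 194 in RRS1). Besides NPM1, pseudogenes are named after DDX18 (5), NOP56 and NIP7 (3 each), NCL, NHP2, DDX10, PES1 and RRN3 (2 each), and LTV1 and GNL2 (1 each). The counts of all these members are uncertain too. The 25 members without such an overlap had a median log2 fold change of 0.41 and the 18 with one 0.46.

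Other genes of ribosome production, in lists that leave out the members, had positive log2 fold changes as well. Of 123 such genes 122 were tested, 118 had a positive value, and the median was 0.31. At an unadjusted p under 0.05, 57 were higher and 0 lower. Over all tested genes, 51.4% had a positive value, 8.31% were higher and 14.2% lower at that threshold. No gene of these lists was called by edgeR with all libraries. Without shNC replicate 2, 69 were called higher and 0 lower, where 9.73% of all genes were called higher. By list the medians were 0.35 in 36 tested genes of 40S biogenesis, 0.32 in 46 of 60S biogenesis, 0.29 in 9 of snoRNP assembly, 0.25 in 17 of the polymerase I machinery and 0.19 in 14 of the RNA exosome. RRP15, a 60S factor, was at 16.0, 20.0 and 12.5 CPM in shNC and at 24.5, 28.1 and 26.2 CPM in shECM1, without overlap (log2 fold change 0.70, edgeR adjusted p = 0.0973). POLR1E (0.42), POLR2K (0.37), RUVBL1 (0.48), ZNHIT3 (0.29), DCAF13 (0.49), NGDN (0.41), RSL1D1 (0.49), EXOSC5 (0.63) and MPHOSPH6 (0.37) had the smallest p-values of their lists beside it. The 4 genes with a negative value were POLR1G (-0.22), TAF1C (-0.10), NOP53 (-0.07) and PIH1D1 (-0.01), named after their values were seen, and none of them was lower at an unadjusted p under 0.05. Cytosolic ribosomal protein genes encode the proteins that these factors pack, and their many pseudogene copies make their counts uncertain. The median of these genes was 0.20, and 78 of 79 were positive, against 51.4% of all tested genes. At an unadjusted p under 0.05, 22 of the 79 were higher, against 8.31% of all tested genes. The differences between the members and these lists were not tested.

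**Figure D5:**
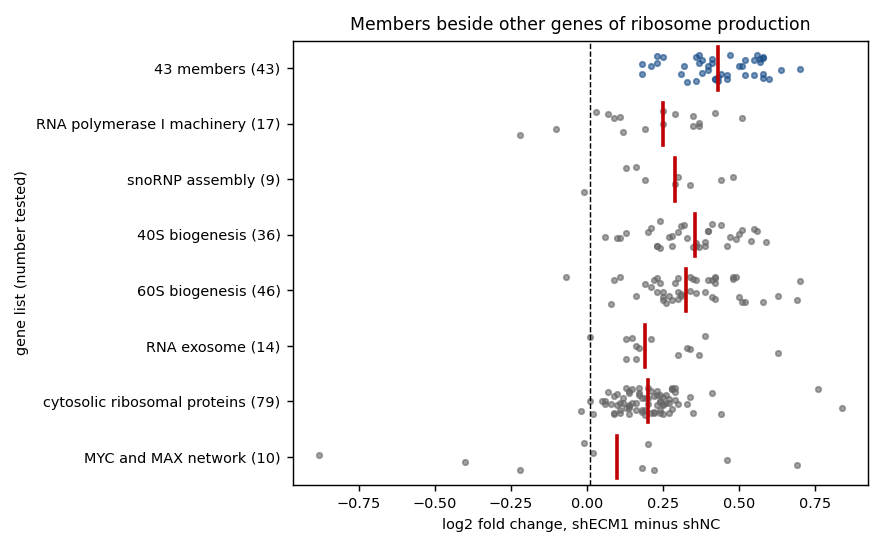
Log2 fold change (shECM1 minus shNC) of each tested gene (points) in the members and in 7 other lists, with the median of each list as a red line and the median of all tested genes, 0.01, as a dashed line. The members centre on 0.43, and the cytosolic ribosomal proteins on 0.20.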

How the data were processed

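The file the authors deposited holds raw counts, a whole number for each gene and library. The submitters' processing notes name the builds GRCh38 and hg38 and the tools fastp, STAR, featureCounts, DESeq2 and Seurat, without their settings. The labels' protocols describe total RNA extraction as well as droplet single-cell libraries, and each column was analysed as 1 library. No pair of libraries matched within sampling noise (chi-square per gene of at least 3.30).

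The counts were filtered with filterByExpr in edgeR 4.0.16 (R 4.3.3), normalised with TMM factors and tested over 12576 genes by quasi-likelihood with no covariate. The SE equals the log2 fold change over the root of the F statistic. CPM are TMM-normalised. DESeq2 1.42.0, on the same 12576 genes, and limma-voom 3.58.1 were alternatives. As a check of the code, the procedure was run on simulated counts in which genes varied independently of each other. That run does not bear on the members, most of which rose and fell together across libraries. Coordinates and exon lengths are from GENCODE release 29 (GRCh38). In 34 of 37 promoter windows the last 25 bases occurred in a GENCODE transcript of the gene.

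The members and lists were chosen with earlier results of these data known. Named genes were ECM1 and MYC, the 2 smallest p-values and the highest level in each role group, and the 2 smallest p-values in each other list. Remaining members are given more briefly.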

Additional observations from a re-analysis of the deposited data

How the results depend on the processing

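All 43 members kept a positive log2 fold change in each of the 15 alternatives, and their median ran from 0.28 (without shNC replicate 3) to 0.65 (without shNC replicate 2). The number of genes called was 0 with all libraries, 505 with no count filter and 701 with DESeq2, and leaving out 1 library gave 0 to 3037. Members called were 3 with no count filter and 7 with DESeq2, and 0 to 38 when 1 library was left out; in both counts the upper value came without shNC replicate 2 and the other 5 fits gave 0. With 1 library left out, members higher at an unadjusted p under 0.05 were 13 (without shECM1 replicate 3) to 40 (without shNC replicate 2). In the first of these fits 9.51% of all genes were higher. In the second, 4748 of 12730 genes were under that threshold in either direction. Across the fits with 1 library left out, members whose groups did not overlap were 21 to 42. The 42 came without shNC replicate 2, where the share of all genes was 27.0%. With all libraries that count was 22, where the share was 11.2%, and it was 20 with upper-quartile factors or library size only. ECM1 had a log2 fold change of -1.58 and was called with no count filter (adjusted p = 0.0139) and by DESeq2 (adjusted p = 0.0254). Leaving out 1 library gave -1.88 to -1.24 for ECM1, called only without shNC replicate 2 (adjusted p = 1.92e-04). The cause of these changes was not tested. Other scalings, a stricter filter (at least 50 counts in 3 or more libraries), limma-voom and a GC offset left 0 members called and medians of 0.43 to 0.47. With the replicate number as a block, 0 members were called, the median was 0.46 and the ECM1 log2 fold change was -1.49. In that fit 31 members were higher at an unadjusted p under 0.05, where 2414 of 12576 genes reached it in either direction. The deviations of same-numbered libraries from their group means had correlations of -0.0703, -0.0459 and -0.181. No library correlated best with its own number. With 3 libraries in each group, these values cannot show whether the numbers pair the libraries.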
